A study of Mus musculus with 9 samples.

Results

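Extracellular ATP and adenosine handling was followed in 6 genes of murine Tc17 cells, the IL-17-producing CD8+ T cells: Entpd1, Nt5e, Ada, Dpp4, Adora2a and P2rx7. They were chosen by name, as the rows of the expression matrix whose gene symbol is 1 of these 6, out of 41388 genes, and all 6 reached the minimum for testing. RNA-Seq was done on 9 libraries. The cells were grown from CD8+ T cells of C57BL/6 mice (8 to 12 weeks old), sorted as naive (CD62L+CD44-) from lymph nodes and spleens. All cultures were primed for 2 days with plate-bound anti-CD3 (5 µg/ml), soluble anti-CD28 (0.5 µg/ml), IL-2 (50 U/ml), TGF-β (0.5 ng/ml), IL-6 (30 ng/ml) and anti-IFN-γ (5 µg/ml). They contained 0.2% DMSO alone (Ctrl), with 20 µM dimethyl fumarate (DMF), or with 20 µM DMF and 50 µM glutathione (DMF + GSH). DMF is a drug for multiple sclerosis that reacts with thiols, and GSH is the main thiol antioxidant of the cell. Each of the 3 groups had 3 libraries, of which replicate 1 belongs to preparation batch 1 and replicates 2 and 3 to batch 2. The labels do not say whether the replicates came from separate animals or cultures. The study states in general that its experiments had independent biological replicates, without saying what was independent for these libraries, and the p-values measure the spread between them.

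ATP that leaves damaged or activated cells is a danger signal for T cells. CD39, the product of Entpd1, removes phosphates from ATP and ADP to give AMP, and CD73, the product of Nt5e, turns AMP into adenosine at the cell surface. Adenosine signals through the receptor encoded by Adora2a, which raises cyclic AMP and dampens T cell activation, or is turned into inosine by adenosine deaminase (Ada). CD26, the product of Dpp4, is a surface peptidase, and in human cells it anchors adenosine deaminase. The P2X7 channel (P2rx7) opens when extracellular ATP is high and can lead to shedding of surface proteins and to cell death.

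The promoters are shown for the genes that fell or rose with DMF, because members that move together may be compared in sequence. They are the 250 bases before the RefSeq transcription start in GRCm38.p6, from 5′ to 3′ on the strand of the gene, and capitals mark matches to the motifs named after them. RefSeq promoters were found for 5 of the 6 genes, 2 each for P2rx7 and Entpd1, and those printed are Nt5e (chr9:88327359-88327608, plus strand), Dpp4 (chr2:62412232-62412481, minus strand), Ada (chr2:163750240-163750489, minus strand) and the upstream start of P2rx7 (chr5:122643677-122643926, plus strand). RefSeq starts can differ from the GENCODE gene positions given below. By these positions the Nt5e stretch lies inside the gene, which starts at 88327197, and that of P2rx7 runs past the gene start at 122643911.
Nt5e: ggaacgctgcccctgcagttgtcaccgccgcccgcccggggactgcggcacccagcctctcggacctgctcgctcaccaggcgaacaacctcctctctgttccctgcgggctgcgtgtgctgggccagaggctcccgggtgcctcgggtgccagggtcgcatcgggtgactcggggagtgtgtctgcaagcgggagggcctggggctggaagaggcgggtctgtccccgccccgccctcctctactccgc
Dpp4: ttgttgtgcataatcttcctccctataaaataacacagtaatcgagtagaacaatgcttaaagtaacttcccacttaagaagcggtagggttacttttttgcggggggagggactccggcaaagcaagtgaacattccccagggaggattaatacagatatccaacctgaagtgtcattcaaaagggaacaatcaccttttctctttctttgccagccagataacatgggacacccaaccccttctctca
Ada: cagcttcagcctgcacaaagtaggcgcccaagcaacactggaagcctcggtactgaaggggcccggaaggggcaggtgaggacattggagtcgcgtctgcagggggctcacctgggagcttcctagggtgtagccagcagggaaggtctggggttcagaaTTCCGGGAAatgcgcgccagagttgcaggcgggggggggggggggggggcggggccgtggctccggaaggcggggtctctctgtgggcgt
P2rx7: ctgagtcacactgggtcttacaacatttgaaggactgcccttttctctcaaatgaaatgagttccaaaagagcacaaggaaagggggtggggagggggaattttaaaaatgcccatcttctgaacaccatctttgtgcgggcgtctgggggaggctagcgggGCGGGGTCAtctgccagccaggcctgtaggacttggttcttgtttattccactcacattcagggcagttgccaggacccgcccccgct

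Both strands were searched for 6 motifs: FOXO (TGTTTAC), ROR (AGGTCA), T-box (GGTGTGA), STAT (TTCNNNGAA), CRE (TGACG, the core of the cyclic AMP response element) and NRF2 (TGACNNNGC), of which the last 2 can overlap. The promoters of Nt5e and Dpp4 held none of these letters. The Ada promoter held 1 STAT match whose first base lies at −90 from the start, and 7.01% of 32817 RefSeq promoters of this length hold one. The printed P2rx7 promoter held 1 NRF2 match at −88, as do 10.2% of all promoters. Its other promoter held a ROR match at −192 and a T-box match at −141, letters found in 14% and 3.33% of promoters. Each of the Entpd1 promoters held 1 CRE core, present in 17.7% of promoters. Nt5e had a promoter rich in G and C (72%, with 21 CpG), as did Ada (67.2%, 14 CpG), whereas that of Dpp4 had 43.6% and 4 CpG against medians of 52.4% and 6. A match is only a match of letters, and binding was not measured here.

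The values are read counts per gene that the authors divided by a factor for each library (normalized counts), and 7671772 to 14511926 reads stood behind a library. The CD8 T cell markers Cd8a, Cd8b1, Cd3d, Cd3e and Cd3g summed to 21480 to 26450 normalized counts in Ctrl, 21760 to 26590 with DMF and 21460 to 28120 with DMF + GSH, and Cd4 did not exceed 4.40. Within this sum Cd8a ranged from 9483 to 10600 in Ctrl, from 10920 to 13780 with DMF and from 9317 to 12240 with DMF + GSH, so that it was higher in all DMF libraries than in Ctrl. The CD3 chain Cd3g ranged from 2763 to 4186 in Ctrl and from 2121 to 2811 with DMF, and Cd3d and Cd3e also had lower ranges with DMF, all overlapping those of Ctrl. Transcripts of neutrophils (S100a8, S100a9) and red blood cells (Hbb-bs, Hba-a1) were at 0 in all libraries. The lists for CD4 T cells, B cells, dendritic cells, NK cells and platelets summed to at most 86.5, 92.0, 22.8, 4.16 and 1.42. The macrophage markers Csf1r, Lyz2, Adgre1 and Cd68 summed to 57.1 to 86.1 in 8 libraries and to 305.7 in Ctrl replicate 3, where Lyz2 reached 119 and Csf1r 58.3. Cd68 itself ranged from 69.6 to 82.5 in Ctrl, from 44.5 to 64.2 with DMF and from 69.0 to 72.0 with DMF + GSH, so that it was lower in all DMF libraries. Foxp3, the regulator of regulatory T cells, ranged from 559 to 913 in Ctrl, from 1035 to 2456 with DMF and from 463 to 935 with DMF + GSH, so that it was higher in all DMF libraries. The endothelial and leukocyte adhesion gene Pecam1 ranged from 273 to 737 in Ctrl, from 146 to 236 with DMF and from 259 to 592 with DMF + GSH, and the other stromal markers Col1a1, Pdgfra and Cdh5 stayed at or below 21.4. Of these, the collagen gene Col1a1 was lower in all DMF libraries (2.90 to 10.6) than in Ctrl (15.8 to 17.1) or DMF + GSH (14.1 to 21.4). Cdh5 and the NK cell marker Klrb1c, at most 5.20 and 2.84 in any library, were at 0 in all DMF libraries and above 0 in all Ctrl libraries. The part of these shifts in the results was not tested. In RNA from whole cultures, fewer cells with a transcript and less transcript per cell cannot be told apart.

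Per length, the 6 genes covered a wide range of expression. Nt5e was the most abundant, with a mean over the 9 libraries of 934 normalized counts per kb of exon, higher than 95.9% of the genes tested. Dpp4 followed with 207 per kb, Adora2a with 112 and Ada with 77.0, which placed them at the 73.2, 56.6 and 46.2 percentiles. Entpd1 (10.4 per kb, 11.8 percentile) and P2rx7 (2.45 per kb, 1.5 percentile) lay near the bottom. In Ctrl the means were 1019 per kb for the adenosine-forming Nt5e and 11.9 for Entpd1, which acts before it. The means of Adora2a and Ada were 119 and 63.7 per kb in Ctrl but 88.6 and 99.4 with DMF, where Adora2a libraries lay on both sides of those of Ada.

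**Figure D1:**
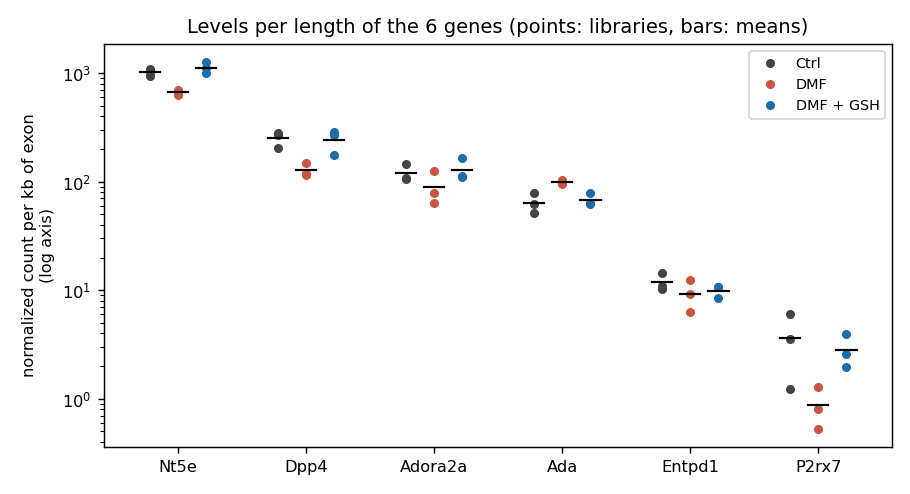
Normalized counts per kb of exon (log axis) of the 6 genes, with 1 point per library, colours for Ctrl, DMF and DMF + GSH, and bars for the means. Nt5e lies at 1019 per kb in Ctrl and P2rx7 at 3.62, and with DMF the points of Adora2a and Ada overlap.

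To learn how DMF changed these genes, DMF was compared with Ctrl, and to learn what GSH changed in the presence of DMF, DMF + GSH was compared with DMF. Both comparisons use the same DMF libraries, and the third, DMF + GSH against Ctrl, shares libraries with each of them. The log2 fold changes (log2FC) are from limma on log2(normalized count + 1), a scale that understates changes of low genes, in 1 fit of the 9 libraries with the preparation batch as covariate. A gene was called at a p adj (Benjamini-Hochberg over 11599 genes) under 0.05. Of the 6 genes, 4 were called between DMF and Ctrl: Nt5e, Dpp4 and P2rx7 were lower and Ada was higher with DMF. P2rx7 was low with DMF and reached the minimum mean of 10 only through the other groups, so that its call is given but not counted as support, here and between DMF + GSH and DMF. With a minimum of 50 it was not tested, and 3 genes were called in each of these comparisons, beside 3093 and 2507 of the 9646 genes then tested. With the minimum of 10, 28.0% of all genes tested were called between DMF and Ctrl, 13.3% lower and 14.6% higher. Likewise 4 were called between DMF + GSH and DMF, Nt5e, Dpp4 and P2rx7 as higher and Ada as lower, where 22.3% of all genes were called, 9.99% higher and 12.4% lower. No gene of the 6, and 0 of all genes, were called between DMF + GSH and Ctrl by limma, edgeR or DESeq2, with unadjusted p under 0.05 for 222, 213 and 100 genes. The replicate numbers paired the libraries, and a fit that blocks on this number instead of the batch (replicate block) also called Adora2a in the first 2 comparisons, where 45.0% and 41.5% of all genes were then called. In DMF + GSH against Ctrl the block called 0.0345% of all genes and none of the 6. The median log2FC of the 6 genes, P2rx7 included, was −0.55 in DMF against Ctrl and 0.66 in DMF + GSH against DMF. Over all genes tested it was 0.0052 and −0.0017. With P2rx7 among the 6, these medians are a description and not counted as support. The threshold of the study asks for a log2FC of 0.75 or more in either direction at a p adj below 0.01. Applied to the limma values, it was passed by Dpp4 alone between DMF and Ctrl, where 2.89% of all genes passed. Between DMF + GSH and DMF it was passed by Nt5e alone, where 0.543% passed. The study used DESeq2 values. With DESeq2 on the recovered reads Dpp4 also passed between DMF + GSH and DMF (log2FC 0.93, p adj = 1.49e-05, DESeq2).

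**Figure D2:**
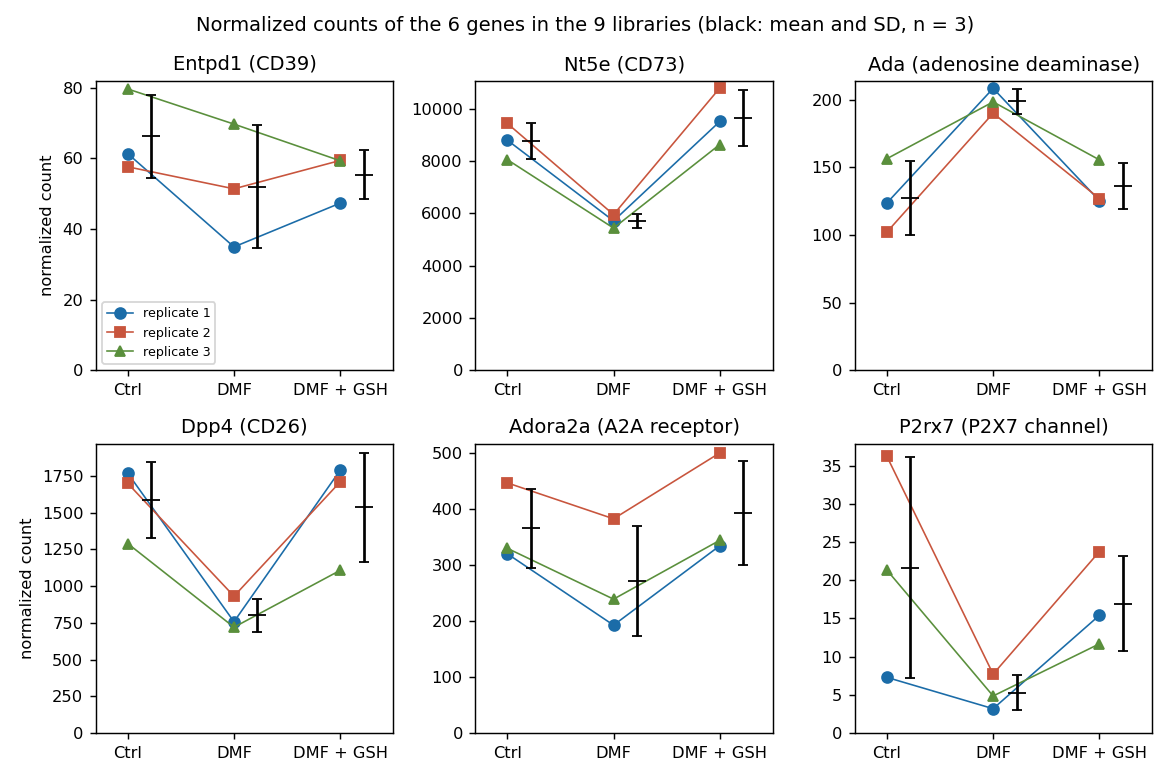
Normalized counts of each gene in the 9 libraries. Lines join libraries with the same replicate number, and black bars give the mean and SD (n = 3). Nt5e and Dpp4 dip and Ada peaks with DMF without overlap with Ctrl, whereas Entpd1 replicates cross.

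Entpd1, the first step from ATP, was not called in any comparison. It is on chromosome 19 from 40612366 to 40741602, plus strand (ENSMUSG00000048120, GRCm38), and the pseudogenes Gm16027 and Gm8783 lie within it without sharing exon bases. Its normalized counts were 61.3, 57.6 and 79.6 (Ctrl replicates 1 to 3), 34.9, 51.4 and 69.7 (DMF) and 47.3, 59.4 and 59.3 (DMF + GSH). The groups overlapped in every comparison, and the highest value was in Ctrl replicate 3, the library with the macrophage transcripts. The mean was 66.2 ± 11.8 (SD, n = 3) in Ctrl, 52.0 ± 17.4 with DMF and 55.3 ± 6.95 with DMF + GSH. The log2FC was −0.38 between DMF and Ctrl (95% interval −0.85 to 0.086, p adj = 0.195, limma) and −0.31 without Ctrl replicate 3. Without 1 library it ranged from −0.56 (without Ctrl replicate 2 or DMF replicate 3) to −0.21 (without DMF replicate 1), with no call. Within replicates 1, 2 and 3 it differed by −0.80, −0.16 and −0.19, so that most of the difference came from batch 1. Between DMF + GSH and DMF it was 0.13 (−0.33 to 0.60, p adj = 0.672, limma), and −0.041 without DMF replicate 1. Each library held 33 to 80 reads of Entpd1, and the interval for DMF against Ctrl includes a fall as large as that of Nt5e.

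Nt5e, which completes the formation of adenosine, fell with DMF and was higher with DMF + GSH than with DMF. The gene is on chromosome 9 from 88327197 to 88372092, plus strand (ENSMUSG00000032420). Its normalized counts were 8798, 9437 and 8051 (Ctrl replicates 1 to 3), 5710, 5950 and 5435 (DMF) and 9512, 10791 and 8631 (DMF + GSH). All DMF libraries lay below all libraries of both other groups, which themselves overlapped. From 8762 ± 693 in Ctrl (SD, n = 3) it fell to 5699 ± 258 with DMF, a log2FC of −0.62 (SE 0.0953, 95% interval −0.83 to −0.41, p adj = 0.00543, limma). The log2 differences within replicates 1, 2 and 3 were −0.62, −0.67 and −0.57, so that batch 1 (replicate 1) and batch 2 gave nearly the same fall. With DMF + GSH it was 9645 ± 1086, with a log2FC over DMF of 0.75 (p adj = 0.00646, limma) and differences of 0.74, 0.86 and 0.67 within the replicates. Without DMF replicate 1 the limma p adj rose to 0.0537 and 0.0624 in these 2 comparisons, and without DMF + GSH replicate 1 to 0.0688 in the second. With the replicate block, both calls held without any 1 library, with a p adj of at most 2.21e-06 for the fall.

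Dpp4 had the largest fall among the 4 genes with means above 100 normalized counts in Ctrl. It is on chromosome 2 from 62330073 to 62412231, minus strand (ENSMUSG00000035000), and shares exon bases with the antisense gene Gm13561, whose mean was 6.37 normalized counts. The library kit does not keep strand, so that reads of the shared bases cannot be told apart. The normalized counts of Dpp4 were 1769, 1700.0 and 1290 (Ctrl replicates 1 to 3), 758, 931 and 720.1 (DMF) and 1790.0, 1711 and 1107 (DMF + GSH). The DMF libraries were the lowest 3 of the 9, and replicate 3 was the lowest of each group. The mean went from 1586 ± 259 in Ctrl (SD, n = 3) to 803 ± 113 with DMF and was 1536 ± 373 with DMF + GSH. The log2FC was −0.98 between DMF and Ctrl (SE 0.180, 95% interval −1.38 to −0.58, p adj = 0.00722, limma) and 0.91 between DMF + GSH and DMF (p adj = 0.0130, limma). The differences within replicates 1, 2 and 3 were −1.22, −0.87 and −0.84 in the first and 1.24, 0.88 and 0.62 in the second, larger in batch 1. The first call was lost without Ctrl replicate 1 (p adj = 0.0518, limma) or DMF replicate 1 (0.0630), and the second without replicate 1 or 3 of DMF (0.101 and 0.0635) or 1 or 2 of DMF + GSH (0.0973 and 0.0585). Under the replicate block both held in every such fit, with a p adj of at most 3.97e-06 for the fall.

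Ada, which removes adenosine, was called higher with DMF, the only such gene of the 6. It is on chromosome 2 from 163726584 to 163750239, minus strand (ENSMUSG00000017697). Its normalized counts were 124, 102 and 156 (Ctrl replicates 1 to 3), 208, 190.0 and 198 (DMF) and 125, 127 and 156 (DMF + GSH). The DMF libraries were the highest 3 and differed little among themselves, whereas Ctrl and DMF + GSH overlapped. The mean was 127 ± 27.3 in Ctrl (SD, n = 3), 199 ± 9.20 with DMF and 136 ± 17.0 with DMF + GSH. With DMF the log2FC was 0.66 (SE 0.165, 95% interval 0.29 to 1.03, p adj = 0.0180, limma), and DMF + GSH differed from DMF by −0.55 (p adj = 0.0397, limma). Within replicates 1, 2 and 3 Ada rose by 0.75, 0.89 and 0.34 with DMF and differed by −0.73, −0.58 and −0.35 between DMF + GSH and DMF. The rise lost its call without replicate 1 or 2 of Ctrl (p adj = 0.0793 and 0.0682, limma) or replicate 1 or 3 of DMF (0.108 and 0.0667). The fall with GSH lost it without Ctrl replicate 1 (p adj = 0.0660, limma), replicate 1 or 3 of DMF (0.190 and 0.120) or 1 or 2 of DMF + GSH (0.173 and 0.138). With the replicate block the p adj without any 1 library was at most 0.00695 for the rise and 0.0200 for the fall.

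Adora2a, the receptor for the adenosine formed, lay lower with DMF in each replicate pair, and whether it was called depended on the pairing. It is on chromosome 10 from 75316877 to 75334784, plus strand (ENSMUSG00000020178). Its normalized counts were 320.1, 447 and 330 (Ctrl replicates 1 to 3), 192, 383 and 239 (DMF) and 334, 500.4 and 344 (DMF + GSH). Replicate 2 was the highest in every group, and DMF replicate 2 lay above Ctrl replicates 1 and 3, so that the groups overlapped. The mean was 366 ± 70.5 in Ctrl (SD, n = 3), 271 ± 99.1 with DMF and 393 ± 93.1 with DMF + GSH. The log2FC was −0.47 between DMF and Ctrl (95% interval −0.93 to −0.018, p adj = 0.109, limma) and 0.57 between DMF + GSH and DMF (0.11 to 1.02, p adj = 0.0698, limma). With the replicate block the intervals were −0.68 to −0.27 and 0.36 to 0.77, and the limma p adj was 0.000623 and 0.000126. The differences within replicates 1, 2 and 3 were −0.73, −0.22 and −0.46 with DMF and 0.79, 0.39 and 0.52 with GSH added. Without DMF replicate 2 both were called in the fit with batch as well (p adj = 0.0153 and 0.0115, limma), and the second also without DMF + GSH replicate 3 (0.0286) and by DESeq2 (0.0395).

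P2rx7, the sensor of ATP itself, was measured from few reads. It is on chromosome 5 from 122643911 to 122691432, plus strand (ENSMUSG00000029468), and the microRNA gene Mir8115, at 0 in all libraries, lies in an exon. It was covered by 7, 39 and 15 reads (Ctrl replicates 1 to 3), 3, 9 and 5 (DMF) and 14, 32 and 12 (DMF + GSH). These gave normalized counts of 7.28, 36.2 and 21.3 (Ctrl), 3.17, 7.70 and 4.84 (DMF) and 15.4, 23.8 and 11.7 (DMF + GSH). The DMF libraries lay below all DMF + GSH libraries, but Ctrl replicate 1 lay below DMF replicate 2, so that Ctrl and DMF overlapped. With means of 21.6 ± 14.5 in Ctrl (SD, n = 3), 5.24 ± 2.29 with DMF and 16.9 ± 6.19 with DMF + GSH, P2rx7 was the lowest of the 6 genes. The log2FC was −1.67 with DMF (SE 0.450, 95% interval −2.68 to −0.67, p adj = 0.0230, limma) and 1.53 between DMF + GSH and DMF (p adj = 0.0373, limma). Within replicates 1, 2 and 3 the differences were −0.99, −2.10 and −1.94 in the first and 1.97, 1.51 and 1.12 in the second. The fall lost its call without Ctrl replicate 2 (p adj = 0.102, limma), DMF replicate 1 (0.0916) or DMF replicate 3 (0.0900). The rise with GSH lost it without replicate 1 or 3 of DMF (both 0.134), 1 or 2 of DMF + GSH (0.190 and 0.135), with no minimum (0.0734) or with no batch term (0.0693). With the replicate block the limma p adj was 0.00174 and 0.00389, and it reached 0.0508 in the second without DMF + GSH replicate 1.

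**Figure D3:**
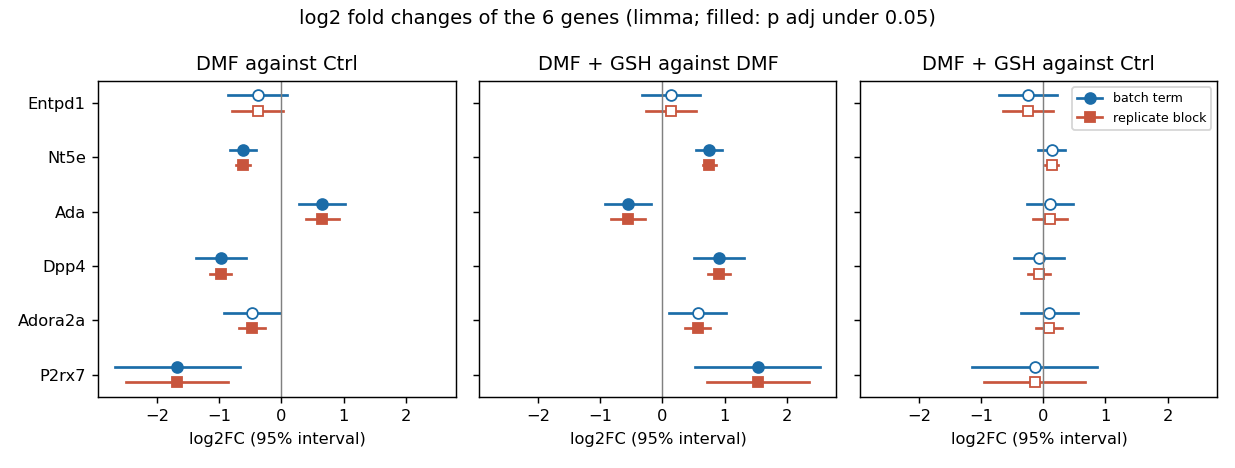
log2FC with 95% intervals of the 6 genes in the 3 comparisons, from the fit with the batch term (circles) and with the replicate block (squares), filled where the p adj was under 0.05. The intervals of DMF + GSH against Ctrl include 0 in the fit with the batch term, and that of P2rx7 is the widest, from −1.15 to 0.87.

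The groups did not overlap for 3 of the 6 genes between DMF and Ctrl, Nt5e, Dpp4 and Ada, beside 41.3% of all genes tested. They did not overlap for 4 of 6 between DMF + GSH and DMF, the former 3 and P2rx7, for which the same limit holds, beside 38.3%, and for 0 of 6 between DMF + GSH and Ctrl, beside 4.47%. In the last comparison the log2FC of the 6 genes and its 95% interval bound how far DMF + GSH may lie from Ctrl. It was 0.14 for Nt5e (−0.077 to 0.35), −0.065 for Dpp4 (−0.47 to 0.34), 0.11 for Ada (−0.26 to 0.48) and 0.096 for Adora2a (−0.36 to 0.55). Entpd1 had −0.25 (−0.72 to 0.22) and P2rx7 −0.14 (−1.15 to 0.87), the widest interval of the 6. Within the replicates, P2rx7 differed from Ctrl by 0.99, −0.59 and −0.82. With the replicate block the interval for Nt5e was 0.028 to 0.24 and its p adj 0.794 (limma). Over the 9 libraries Nt5e and Dpp4 varied together (Pearson r = 0.93) and Ada opposite to both (−0.90 and −0.95), whereas Entpd1 had the weakest relations (0.21 with Dpp4). These values describe libraries that share treatment and batch.

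The genes whose levels were most alike over the 9 libraries were sought among all genes tested, by Pearson r of log2(normalized count + 1). Nt5e was most like Zan (0.98), and Dpp4 most like Grina (0.996) and Smim14 (0.994). For Ada the closest were Nadk and Npepl1 (both 0.99), for Adora2a Lrmp (0.98) and Cdca3 (0.97), for Entpd1 Lrrc8b (0.93) and Lnx2 (0.92), and for P2rx7 Fam63b and 4933411K20Rik (both 0.98). The most opposite were Supv3l1 for Nt5e (−0.98), Grwd1 for Dpp4 (−0.997), Asxl1 for Ada (−0.99), Vim for Adora2a (−0.98), Sh2d5 for Entpd1 (−0.96) and Slc35f2 for P2rx7 (−0.97).

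To place the 6 genes in their pathway, 59 other genes of purinergic signalling were listed by role, of which 58 were matched and 37 reached the minimum. Between DMF and Ctrl 12 of the 37 were called, beside 28.0% of all genes tested, 4 higher and 8 lower with DMF, and with the replicate block 18, beside 45.0%, with 9 in each direction. Their median log2FC was −0.040, beside 0.0052 over all genes tested. Between DMF + GSH and DMF 11 of the 37 were called, beside 22.3% of all genes, 7 higher and 4 lower, and 18 with the block, beside 41.5%, 10 higher and 8 lower. Alpl (in both comparisons) and Adora2b (in the second) are among the block calls, but they reached the minimum only through DMF, where they were high, and are no support. In DMF + GSH against Ctrl 0 were called in either fit. Leaving out replicate 1 of DMF left 0 of the list called in DMF against Ctrl (110 of all genes), and leaving out its replicate 3 left 5 (953 of all genes). Omission of Ctrl replicate 1 left 3 (628 of all genes) and that of Ctrl replicate 2 left 6 (1162 of all genes). For DMF + GSH against DMF it was 0 without replicate 1 of DMF or of DMF + GSH (15 and 10 of all genes) and 1 without DMF replicate 3 or DMF + GSH replicate 2 (107 and 143 of all genes).

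Of the 4 genes for ATP release, Panx1, Slc17a9, Gja1 and Lrrc8a, 0 were called between DMF and Ctrl, beside 28.0% of all genes tested. So few genes do not tell this from the share of all genes. Gja1, a connexin, had a log2FC of 0.41 between DMF + GSH and DMF and was called there with the block (p adj = 0.00288, limma) but not with the batch term (0.245). Panx1, which forms a channel for ATP, stood at 838 ± 26.1 normalized counts in Ctrl (SD, n = 3) and 879 ± 23.2 with DMF. Of the other ectonucleotidases only Enpp1 and Alpl reached the minimum, and Entpd2, Entpd3 and Entpd8 had group means of at most 2.87 normalized counts. Alpl had 9.19 ± 0.825 normalized counts in Ctrl, 22.3 ± 14.03 with DMF and 7.13 ± 3.14 with DMF + GSH (SD, n = 3), and it reached the minimum only through DMF, where it was high, so that nothing is read from its call with the block (p adj = 0.0456, limma), 1 of the 18. Of the other adenosine receptors, Adora3 is on more than 1 row, of which only the first was used. Only Adora2b of these receptors reached the minimum, and only through DMF, with 10.9 ± 2.74 in Ctrl, 18.3 ± 5.08 with DMF and 8.77 ± 1.81 with DMF + GSH (log2FC 0.68, p adj = 0.166, limma). Among the other ATP-gated channels only P2rx4 did, with 143 ± 24.9 in Ctrl and 121 ± 29.5 with DMF and no call, and P2rx1, P2rx2, P2rx3, P2rx5 and P2rx6 had group means of at most 6.31. P2ry1, the only nucleotide G protein-coupled receptor tested, had a log2FC of 1.37 and was not called in the fit with batch (p adj = 0.0578, limma) but with the block (0.00737) and by edgeR (0.0432).

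Art2b, an ADP-ribosyltransferase that can activate P2X7 in mouse T cells when NAD is released, fell with DMF from 70.5 ± 19.8 to 26.2 ± 6.22 normalized counts and stood at 66.2 ± 23.2 with DMF + GSH (SD, n = 3). Its log2FC was −1.38 between DMF and Ctrl (p adj = 0.0157, limma) and 1.26 between DMF + GSH and DMF (p adj = 0.0259, limma). Art2b has a near copy, Art2a, which was not analysed here, so that its count is uncertain. Cd38, which consumes NAD, was not called, with 197 ± 48.5 in Ctrl and 169 ± 29.6 with DMF.

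Of the 4 adenosine carriers tested 3 were called between DMF and Ctrl, 2 higher and 1 lower, beside 14.6% and 13.3% of all genes. The equilibrative nucleoside transporters Slc29a1 and Slc29a2 rose with DMF, Slc29a2 from 44.5 ± 10.2 to 92.7 ± 10.4 normalized counts (SD, n = 3, log2FC 1.06, p adj = 0.00820, limma) and Slc29a1 by 0.35 on the log2 scale (p adj = 0.00847, limma). The concentrative transporter Slc28a2 fell from 508 ± 158 to 291 ± 68.1 (log2FC −0.78, p adj = 0.0218, limma). Against DMF, DMF + GSH had a log2FC of −0.38 for Slc29a1, −1.16 for Slc29a2 and 0.77 for Slc28a2. All 3 were called, beside 12.4% of all genes called lower and 9.99% higher there. Slc29a3 was called in neither comparison. Of the 7 enzymes of adenosine metabolism 2 were called, both higher, a share near the 28.0% of all genes called. They were Ampd2, an AMP deaminase (log2FC 0.62, p adj = 0.00722, limma), and adenosine kinase Adk (log2FC 0.36, p adj = 0.0484, limma). Both were called lower with DMF + GSH than with DMF, beside 12.4% of all genes. Ahcy, which splits S-adenosylhomocysteine, had a log2FC of 0.29 and was called with the block (p adj = 0.00571, limma) but not with the batch term (0.107). Pnp, Ampd3, Nt5c and Nt5c2 were not called in either fit.

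The cyclic AMP arm that lies below the receptor encoded by Adora2a had 15 genes, all tested, of which 6 fell and 0 rose with DMF, beside 13.3% and 14.6% of all genes. The 6 were the adenylyl cyclases Adcy6 and Adcy7, which make cyclic AMP, the phosphodiesterases Pde3b and Pde4d, which break it down, the kinase subunit Prkacb and the transcription factor Creb1. Adcy6 went from 198 ± 4.31 to 117 ± 33.5 normalized counts (SD, n = 3, log2FC −0.80, p adj = 0.0116, limma) and Adcy7 from 2515 ± 303 to 1693 ± 284 (log2FC −0.58, p adj = 0.0199, limma). Pde4d, in the row ENSMUSG00000021699 of the 2 rows with this symbol, went from 977 ± 44.3 to 639 ± 77.2 (log2FC −0.62, p adj = 0.00543, limma). Pde3b, Prkacb and Creb1 had log2FC of −0.50, −0.48 and −0.37 (p adj = 0.0123, 0.0124 and 0.0107, limma). With the block Pde4b was also lower (log2FC −0.43, p adj = 0.000563, limma), whereas Adcy3 (0.26, p adj = 0.0198) and Pde4a (0.92, p adj = 0.0320) were higher. Between DMF + GSH and DMF 5 of the 15 were called, all higher, beside 9.99% of all genes. Adcy6 missed the threshold (log2FC 0.55, p adj = 0.0503, limma) unless the block was used (0.00736). Falls thus occurred in genes that make cyclic AMP and in genes that degrade it, and cyclic AMP was not measured here.

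**Figure D4:**
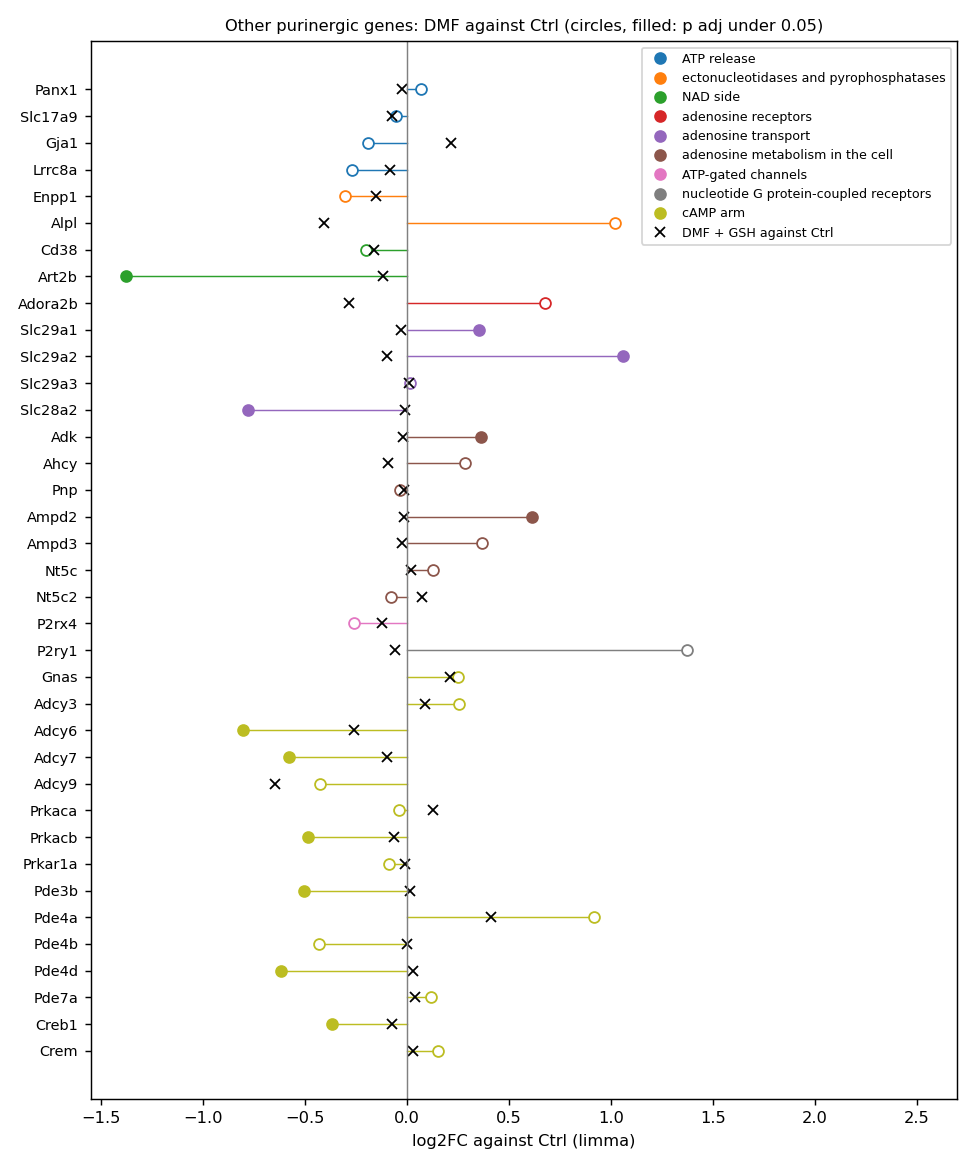
log2FC against Ctrl of the 37 other purinergic genes tested, by role: circles for DMF, filled where called at p adj under 0.05 in the fit with the batch term, and crosses for DMF + GSH. The 6 filled circles of the cyclic AMP arm all lie below 0, from −0.80 for Adcy6 to −0.37 for Creb1.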

How the data were processed

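Single reads (50 bp) were aligned by the authors to GRCm38 with STAR 2.4.0b, counted per gene with featureCounts (Ensembl 76) and fitted with DESeq2 1.18.1 with the preparation batch as confounder. The sources used here do not give whether strand was used. The deposited signal is read counts divided by a factor per library. In each library all values above 0 were whole multiples of its step (tolerance 0.01), from which reads were recovered. The deposited table also holds the authors' own comparison of Ctrl with DMF (mean, log2 fold change, statistic, p-value, adjusted p), which was not used. Total reads had a median of 10401056 in Ctrl, 11572657 with DMF and 11152111 with DMF + GSH, and Ctrl replicate 3 was the shallowest.

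Groups, replicates and batches came from the sample titles. limma-trend (limma 3.58.1, R 4.3.3) was fitted on log2(normalized count + 1) over the 11599 genes whose mean reached 10, all groups in 1 fit with batch, with Benjamini-Hochberg adjustment. A quasi-likelihood test had been foreseen for raw counts only. edgeR 4.0.16 and DESeq2 1.42.0 on the recovered reads, pseudocounts of 0.5 and 4, no minimum, a minimum of 50, TMM scaling, the replicate block, no batch term, a fit of only the 6 libraries compared, the threshold of the study and each library left out (also with the block) were alternatives. After subtraction of group means, the correlation over genes was 0.447 to 0.578 for the 9 pairs of equal number across groups and −0.471 to −0.0621 for the others, and the number was taken to pair them. Counts of 11599 genes were simulated for all 9 libraries, from the mean of each gene over the 9 libraries, their depths and estimated dispersions. No batch or replicate effect was put in, unlike in the data. On these counts the test called 57% of 100 genes changed by 0.6 (log2), 79% of 100 changed by 1 and 7 other genes.

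The 6 genes, the list of 59 other genes and the markers were chosen with earlier results of these data known. Named were the 6 genes, the listed genes called between DMF and Ctrl, per gene the 2 most alike and 1 most opposite, and overlapping genes, except 1 that is not reported here. Other listed genes, and Foxp3, Pecam1, Cd8a, the CD3 chains, Cd68, Col1a1, Cdh5 and Klrb1c among the markers, were named after their values were seen. Lengths and positions come from GENCODE vM21 (40340 of 41388 identifiers found), promoters from RefSeq. Adgre1 was matched by its identifier. Matplotlib 3.10.9, NumPy 2.4.6 and pandas 2.3.3 ran in Python 3.11.15.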

Additional observations from a re-analysis of the deposited data

How the results depend on the processing

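Of 339 values of the 6 genes under an alternative, 298 kept their direction and side of the threshold, 27 lost their call, 6 gained one and 8 changed sign. The 339 include DMF + GSH against Ctrl, where none of the 6 was called in any setting, so that no call could be lost there. In the fit with batch, leaving out a library of the group not compared kept the log2FC the same. The changes of sign were all in values without a call. Leaving out 1 library gave for Entpd1 between DMF + GSH and DMF −0.041 to 0.32, and between DMF + GSH and Ctrl −0.050 to 0.26 for Adora2a, −0.059 to 0.27 for Ada, −0.20 to 0.14 for Dpp4 and −0.59 to 0.27 for P2rx7. Counts of the 6 genes in this section include P2rx7 where it was called, and its calls are not counted as support. The number of the 6 genes called without 1 library was 0 to 5 for DMF against Ctrl. It was 0 without DMF replicate 1 (110 of all genes) and 5 without DMF replicate 2 (3641 of all genes). Without Ctrl replicate 1, Ctrl replicate 2 or DMF replicate 3 it was 2 (628, 1162 and 953 of all genes). For DMF + GSH against DMF the number was also 0 to 5. It was 0 without replicate 1 of DMF or of DMF + GSH (15 and 10 of all genes). Without DMF replicate 3 or DMF + GSH replicate 2 it was 1 (107 and 143 of all genes). The 5 were called without DMF replicate 2 or DMF + GSH replicate 3 (3097 and 3094 of all genes). Of the list of other purinergic genes, 0 to 15 were called without 1 library in either comparison. The 15 were reached without DMF replicate 2 in both (3641 and 3097 of all genes). The cause was not tested, though each such fit has fewer samples. Under the threshold of the study, on limma values, 1 of the 6 passed in each of these comparisons. Of the list 1 and 0 passed, beside 2.89% and 0.543% of all genes tested. With the replicate block, which pairs the libraries by number, 18 of the list were called in DMF + GSH against DMF, and 5 of the 6 genes in both comparisons. With the block and 1 library left out, 5 of the 6 were called in every fit of DMF against Ctrl and 4 to 5 of DMF + GSH against DMF, where 4102 to 5466 and 3581 to 4873 of all 11599 genes were called. The block changed no call of the 6 genes other than that of Adora2a. Under the minimum of 50, P2rx7 had no value and 3 of the 6 genes were called in each of the same comparisons. The number of genes called between DMF and Ctrl ranged from 110 without DMF replicate 1 to 5466 with the block and without DMF + GSH replicate 1. With the block and all libraries it was 5224. Between DMF + GSH and DMF the number ranged from 10 without DMF + GSH replicate 1 to 4873 with the block and without Ctrl replicate 1. With the block and all libraries it was 4814. P2rx7 rests on 3 to 39 reads per library and Entpd1 on 33 to 80.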
